A study of Mus musculus with 2 samples.

Results

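The immediate early and early response genes are a set of 38 genes, chosen by symbol, out of 55536 annotated genes, and they hold 112 of the 141864 annotated transcripts. They are genes whose messenger RNA appears within minutes to hours of a signal at the cell surface, with no new protein needed for the first of them. Hormones, growth factors and nerve activity act through kinases on transcription factors already in the nucleus, which switch the genes on. The RNA is short-lived, and many of the products are transcription factors, among them the FOS and JUN proteins that pair as AP-1, or brakes on the signal itself. In the adrenal gland, corticotropin acting through cyclic AMP in the steroid-making cortex, and nerve stimulation of the catecholamine-making medulla, are known inducers of such genes.

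Total RNA of adrenal glands from male B6CASTF1/J mice, the first-generation cross of C57BL/6J and CAST/EiJ, was sequenced at 14 days of age in 2 libraries, each begun with 300 ng of RNA. The labels make them biological replicates 1 and 2 of 1 group, with no treatment and no engineered allele named, so nothing was contrasted and no p-value is given. The labels use the wording 3x Males without explaining it, and their numbering of the male pool differs between fields, so whether each library stands for separate animals is not known. Values are TPM, an abundance corrected for length and depth, from the deposited RSEM-type tables. The difference used throughout is that of log2(TPM + 1), replicate 2 minus replicate 1, and a gene was compared when its mean was at least 1 TPM.

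The libraries held 36260745 expected counts (replicate 2) and 32963248 (replicate 1), of which the early response genes took 64224 and 45653. Markers of the cortex and the medulla were all present, and their summed levels were close between the libraries, at 6491 and 5978 TPM for 7 cortex markers and at 1340 and 1310 TPM for 6 medulla markers. The libraries stood apart in markers of other tissue. The 10 hepatocyte markers summed to 5932 TPM in replicate 2, against 352 TPM in replicate 1, and the 10 lymphocyte markers to 14.2 TPM in replicate 2, against 101 TPM in replicate 1. No marker was at 0 in either library. In such bulk tissue, fewer cells of a type and less RNA per cell cannot be told apart.

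The set was expressed at modest levels in both libraries, and its summed level was higher in replicate 2. At least 1 TPM was found in both libraries for 30 of the 38 genes. The mean lay at 20 TPM or more for 11, between 5 and 20 TPM for 15, between 1 and 5 TPM for 5 and under 1 TPM for 7. The median gene of the set stood at 10.2 TPM in replicate 2 and 7.31 in replicate 1. Together the 38 genes reached 737 TPM in replicate 2 and 573 in replicate 1. That was 0.265% and 0.209% of the TPM of all nuclear protein-coding genes (mean 0.237% ± 0.0398, SD, n = 2). The 10 most abundant genes carried 68.4% of the set's TPM in replicate 2 and 71.3% in replicate 1.

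Ordered by mean, the set ran from Rgs2 through Fosl2, Zfp36l1, Jund, Btg1, Junb, Dusp6, Nfkbia, Klf2 and Jun at the top to Npas4 and Egr4 at the bottom. Of the 30 pairs of neighbours in this order with means of at least 1 TPM, 23 overlapped in the ranges of their 2 libraries. An overlap does not mean that the order changed between libraries. Fosl2 had 75.49 TPM in replicate 2 and 54.79 in replicate 1, above Zfp36l1 in each (55.15 and 52.45 TPM), though their ranges overlapped. The 7 pairs that did not overlap were Rgs2 above Fosl2, Zfp36l1 above Jund, Jund above Btg1, Dusp6 above Nfkbia, Nfkbia above Klf2, Btg2 above Klf4, and Dusp5 above Maff. This order is that of the RSEM values. In a second deposited quantification, with the columns of kallisto, Btg1 stood above both Zfp36l1 and Jund. There Btg1 had 81.68 TPM in replicate 2 and 81.55 in replicate 1, against 73.17 and 68.91 TPM for Jund. The ranges of Dusp6 and Nfkbia overlapped in those values, as did those of Btg2 and Klf4.

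**Figure D1:**
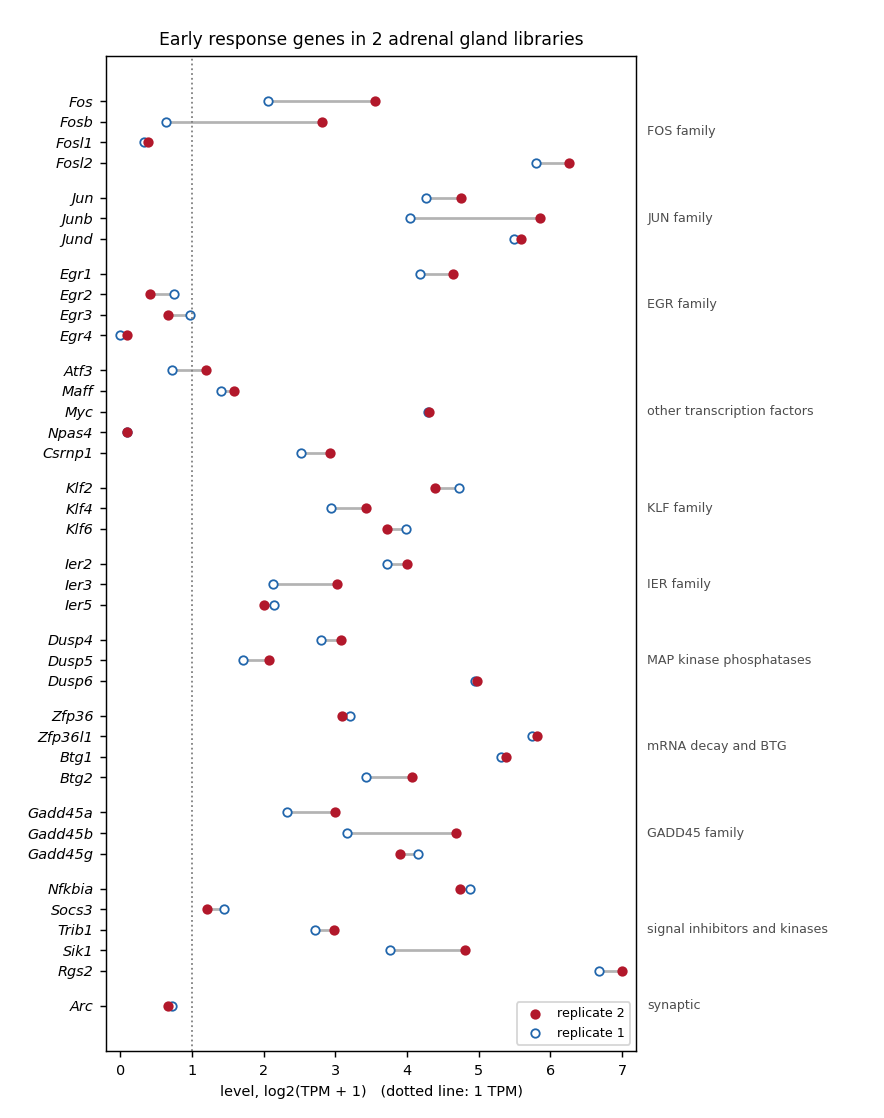
Level of each of the 38 genes as log2(TPM + 1), grouped by role; filled points are replicate 2 and open points replicate 1, joined by a line, and the dotted line marks 1 TPM. Rgs2 stands highest in both libraries, and the widest gaps, with replicate 2 above replicate 1, are those of Fosb, Junb, Gadd45b, Fos and Sik1.

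A subset led by Fosb, Junb, Gadd45b, Fos and Sik1 was higher in replicate 2, while the genes of 20 TPM and above other than Junb lay under 1.5-fold apart. The 31 genes that averaged 1 TPM or more had a median difference of 0.29 on the log2 scale, beside -0.058 over the 12535 nuclear protein-coding genes compared in the same way. Higher values in replicate 2 were found for 24 of the 31, a direction shared by 37.2% of all genes compared. That count was 20 with ERCC spike-in scaling, where Myc, Dusp6, Zfp36l1 and Btg1 turned, and 23 with TPM rescaled over nuclear protein-coding genes, where Myc turned. Over 1.5-fold higher in replicate 2 were 8 genes, namely Fosb, Junb, Gadd45b, Fos, Sik1, Ier3, Gadd45a and Btg2, while 4.09% of all genes passed that limit. None of the 31 was over 1.5-fold higher in replicate 1, a limit passed by 3.57% of all genes. The first 5 of the 8 were also over 2-fold higher in replicate 2, beside 2.9% of all genes.

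The deposited tables give credibility bounds for each TPM, which cover the error of assigning reads and not that between animals. The bounds lay wholly higher in replicate 2 for 17 of the 31 genes, beside 8.9% of all genes, and wholly higher in replicate 1 for 3, beside 11.6% of all genes. Those 3 were Klf2, Klf6 and Gadd45g. The gap to all genes was widest among genes of middling level: between 5 and 20 TPM, 15 genes of the set had a median difference of 0.41 against -0.059 for all genes, and 6 of the 15 were over 1.5-fold higher in replicate 2, beside 2.97% of all genes at that level. At 20 TPM and above, the 11 genes of the set had a median of 0.093 against -0.019, and only Junb passed the limit, beside 3.73% of all genes at that level. The hepatocyte and lymphocyte markers differed between the same libraries by medians of 3.91 and -2.01 on the log2 scale, and their part in the differences of the early response genes was not tested.

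**Figure D2:**
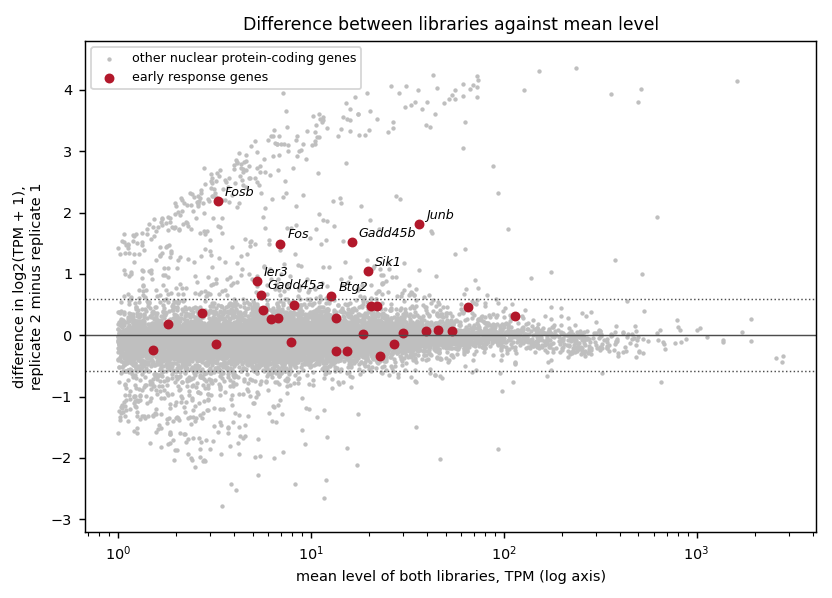
Difference in log2(TPM + 1), replicate 2 minus replicate 1, against the mean TPM of both libraries on a log axis, for 12535 nuclear protein-coding genes; large points are the 31 early response genes, and dotted lines mark 1.5-fold either way. The 8 named genes lie above the upper line and none of the set lies below the lower one.

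The promoters shown are those of 5 of the 8 genes over 1.5-fold higher in replicate 2, picked because they hold a CRE-type element or a TATA box. A CRE, TGACGTCA or its shorter form TGACG, is bound by CREB-type factors, and TATAAA near the start is bound by the general transcription machinery. RefSeq windows on GRCm38.p6, from 250 bases before to 50 bases after the annotated start, were matched for 29 of the 38 genes. Those of Fosl1, Egr1, Egr3, Myc, Ier2, Dusp4, Trib1, Sik1 and Arc were not used here. The windows below are written 5′ to 3′ on the gene's strand, with matches to TGACG on either strand, to TGACGTCA and to TATAAA on the gene's strand in capitals. They lie at chr12:85473640-85473939 on the plus strand (Fos), chr7:19309996-19310295 on the minus strand (Fosb), chr8:84978699-84978998 on the minus strand (Junb), chr10:80929841-80930140 on the plus strand (Gadd45b) and chr1:134079106-134079405 on the minus strand (Btg2).
Fos: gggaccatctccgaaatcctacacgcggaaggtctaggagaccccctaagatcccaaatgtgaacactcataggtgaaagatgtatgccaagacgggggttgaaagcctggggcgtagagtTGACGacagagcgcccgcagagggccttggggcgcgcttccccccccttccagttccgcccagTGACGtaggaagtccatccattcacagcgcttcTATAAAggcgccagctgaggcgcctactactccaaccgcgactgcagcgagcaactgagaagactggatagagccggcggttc
Fosb: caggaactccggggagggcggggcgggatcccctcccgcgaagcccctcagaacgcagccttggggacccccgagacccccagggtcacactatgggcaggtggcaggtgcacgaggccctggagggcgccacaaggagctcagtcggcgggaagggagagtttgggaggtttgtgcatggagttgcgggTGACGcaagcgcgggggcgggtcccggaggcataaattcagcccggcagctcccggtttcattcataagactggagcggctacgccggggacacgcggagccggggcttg
Junb: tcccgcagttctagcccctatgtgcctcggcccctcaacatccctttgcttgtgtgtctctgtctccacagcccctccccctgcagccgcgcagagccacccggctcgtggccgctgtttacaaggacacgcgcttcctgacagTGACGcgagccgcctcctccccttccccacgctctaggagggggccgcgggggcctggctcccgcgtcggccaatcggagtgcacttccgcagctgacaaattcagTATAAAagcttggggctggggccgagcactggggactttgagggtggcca
Gadd45b: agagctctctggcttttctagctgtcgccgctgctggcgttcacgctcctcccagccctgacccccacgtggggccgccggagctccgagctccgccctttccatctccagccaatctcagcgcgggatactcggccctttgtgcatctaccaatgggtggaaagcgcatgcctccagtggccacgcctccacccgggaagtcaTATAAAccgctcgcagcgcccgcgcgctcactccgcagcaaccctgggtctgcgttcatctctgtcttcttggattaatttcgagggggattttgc
Btg2: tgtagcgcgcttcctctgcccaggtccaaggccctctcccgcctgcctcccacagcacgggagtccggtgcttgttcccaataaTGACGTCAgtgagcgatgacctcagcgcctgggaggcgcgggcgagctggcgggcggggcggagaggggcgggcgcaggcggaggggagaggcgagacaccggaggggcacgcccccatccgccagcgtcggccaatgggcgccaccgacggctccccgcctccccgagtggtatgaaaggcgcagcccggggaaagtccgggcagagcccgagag

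The Fos window holds TGACG 129 and 66 bases before the start and TATAAA 33 bases before it. The Fosb window holds TGACG 60 bases before the start and no TATAAA. In the Junb window TGACG lies 106 bases before the start, and TATAAA begins at the RefSeq start itself. The GENCODE start of Junb, at chr8:84978718 on the minus strand, lies downstream of that TATAAA. Among the genes shown, only Fos has the same start in both annotations, so the distances hold for the RefSeq starts only. Gadd45b has TATAAA 46 bases before the start and no TGACG, and Btg2 has the whole TGACGTCA further upstream, 166 bases before it. Of the other 3 genes, the windows of Ier3 and Gadd45a hold none of these letters. A match is a description of letters and not a shown site of binding. TGACG was also present in genes of the set that were not over 1.5-fold apart, among them Btg1, Klf2 and Rgs2. Whether these letters go with the difference between the libraries was not tested.

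Across the set, TGACG on either strand was present in the windows of 15 of 29 genes (51.7%), beside 23.0% of the 27025 genes in the table and 35.3% of the 9820 nuclear protein-coding genes averaging 1 TPM or more. The 15 were Atf3, Btg1, Btg2, Csrnp1, Dusp5, Egr2, Egr4, Fos, Fosb, Junb, Klf2, Klf4, Maff, Npas4 and Rgs2. Among them, Atf3, Egr2, Egr4 and Npas4 averaged under 1 TPM. The 29 were thus not filtered by level, unlike the genes with at least 1 TPM beside them, for this and the other motifs. Egr2 also holds the CArG box, and Egr2, Egr4 and Npas4 the NF-kB site. The whole TGACGTCA, which contains TGACG on both strands, was present in Btg2 and Maff, 6.90% of the 29 beside 2.03% of all genes and 3.51% of the genes with at least 1 TPM. The CArG box, the letters bound by serum response factor, was found in Dusp5, Egr2 and Zfp36 (10.3% beside 1.81% of all genes and 1.60% of the genes with at least 1 TPM). GCGNGGGCG, the letters bound by EGR proteins, was found in 10 of the 29 (34.5% beside 6.27% of all genes, and 12.6% of the genes with at least 1 TPM). The NF-kB site was found in 9 (31.0% beside 9.55% of all genes and 12.4% of the genes with at least 1 TPM), among them Nfkbia and Ier3. TGANTCA, the AP-1 letters, was found in Csrnp1 and Zfp36l1, 6.90% beside 8.97% of all genes and 6.05% of the genes with at least 1 TPM. TATAAA on the gene's strand was found in 6 (20.7% beside 9.77% of all genes and 5.34% of the genes with at least 1 TPM). All but TATAAA were searched on both strands, and some genes have several windows.

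The FOS family was carried by Fosl2 in both libraries, while Fos and Fosb, the members best known as inducible, were low in replicate 1 and several-fold higher in replicate 2. Fosl2 (chr5:32135801-32157842), whose product is also called FRA2, had 75.5 TPM in replicate 2 and 54.8 in replicate 1, from 15379 and 10140 expected counts. Its difference of 0.46 stayed under 1.5-fold. Fos (chr12:85473890-85477273) had 10.7 TPM from 677 counts in replicate 2 and 3.15 TPM from 193 counts in replicate 1, a difference of 1.49. The deposited bounds of Fos ran from 9.89 to 12.2 TPM in replicate 2 and from 2.83 to 4.08 TPM in replicate 1, so they did not overlap. Fosb (chr7:19302696-19310051) had 6.04 TPM from 733 counts in replicate 2 and 0.55 TPM from 53 counts in replicate 1. Its difference of 2.18 was the widest of the set. Fosl1, which encodes FRA1, stayed under 1 TPM, with 0.31 TPM in replicate 2 and 0.26 in replicate 1.

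As a share of the family's summed TPM, Fosl2 took 81.6% in replicate 2 and 93.3% in replicate 1. Fos took 11.5% in replicate 2 and 5.36% in replicate 1, and Fosb 6.53% and 0.936% in the same order. The family as a whole summed to 92.5 TPM in replicate 2 and 58.8 in replicate 1.

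In the RSEM values Junb led the JUN family in replicate 2 and Jund led it in replicate 1, but in the second deposited quantification, whose columns are those of kallisto, Jund led in both. JUN proteins pair with FOS proteins or with each other in AP-1, and JUNB and JUND are known as weaker activators than JUN. Junb (chr8:84974484-84978718) had 57.0 TPM from 3464 counts in replicate 2 and 15.5 TPM from 872 counts in replicate 1, a difference of 1.81. Jund (chr8:70698949-70700616) was nearly level, with 47.0 TPM from 2629 counts in replicate 2 and 44.0 TPM from 2271 counts in replicate 1. Jun (chr4:95049034-95052222) had 25.8 TPM in replicate 2, the lowest of the family there, and 18.3 TPM in replicate 1, between Jund and Junb, and its bounds did not overlap. By kallisto, Junb had 71.0 TPM and Jund 73.2 TPM in replicate 2, against 19.6 TPM for Junb and 68.9 TPM for Jund in replicate 1. Junb made up 43.9% of the family in replicate 2 and 19.9% in replicate 1, whereas Jund made up 36.2% in replicate 2 and 56.6% in replicate 1. The annotated Junb gene overlaps Prdx2, a peroxidase gene on the opposite strand, which had 154 TPM in replicate 2 and 142 in replicate 1. The library kit keeps strand, per the labels, but whether the counting used it is not given in the sources used here, so reads from an overlap of this kind cannot be placed with certainty. Summed JUN over summed FOS levels were 1.40 in replicate 2 and 1.33 in replicate 1.

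**Figure D3:**
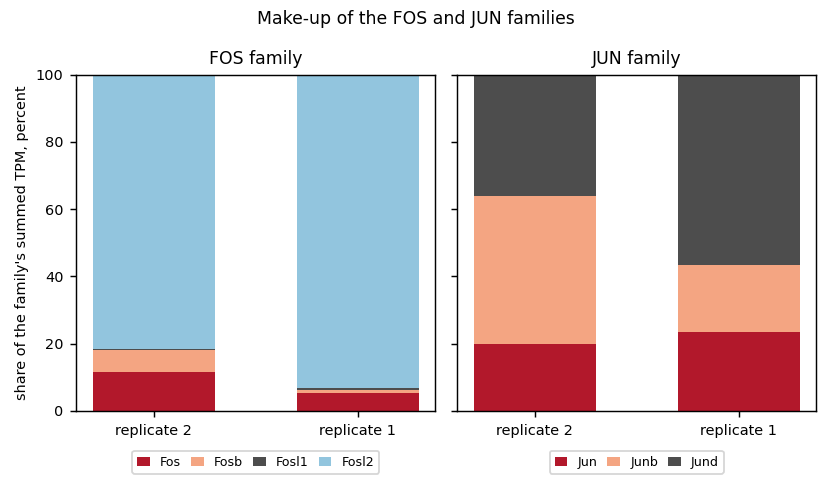
Share of each gene in the summed TPM of the FOS family (left) and the JUN family (right), in percent, with replicate 2 left of replicate 1 in each panel. Fosl2 fills most of the FOS bar in both libraries, and Junb takes 43.9% of the JUN bar in replicate 2 and 19.9% in replicate 1.

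Fosb also showed its known splice choice. Splicing inside the last coding exon removes 140 bases and yields the shorter protein called delta-FosB, which lacks the activating end of the full protein and is known in the brain for its stability. The 140 bases lie at chr7:19305007-19305146 on the minus strand of mm10 (GENCODE M21) and are shown because the choice between the forms turns on them. They are in capitals, with 20 bases of exon on either side in lower case, and begin with GT and end with AG as introns do.
Fosb intron: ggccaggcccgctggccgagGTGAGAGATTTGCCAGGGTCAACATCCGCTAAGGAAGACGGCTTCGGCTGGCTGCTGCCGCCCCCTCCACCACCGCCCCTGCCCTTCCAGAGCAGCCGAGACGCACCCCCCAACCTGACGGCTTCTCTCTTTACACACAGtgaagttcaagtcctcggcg
Transcript Fosb-201 keeps these bases and encodes 338 residues. Fosb-206 and Fosb-207 lack them and are annotated with 237 and 201 residues. Forms without the 140 bases had 1.78 TPM in replicate 2 and 0.16 in replicate 1, and forms that keep them had 3.98 and 0.39 TPM in the same order. The spliced forms thus took 30.9% in replicate 2 and 29.1% in replicate 1 (SD 1.28, n = 2) while the gene's level differed several-fold. The kallisto values gave 29.3% in replicate 2 and 37.7% in replicate 1. In replicate 2 the RSEM values put 1.30 TPM on Fosb-207 and 0.48 TPM on Fosb-206. By kallisto, Fosb-206 had 2.77 TPM there and Fosb-207 almost none, so which spliced form was present depends on the quantification. Fosb had only 53 counts in replicate 1, so that library says little about the share.

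Of the 4 EGR genes, zinc-finger factors bound to GC-rich letters, only Egr1 was expressed above 1 TPM. Egr1 (chr18:34859823-34864984) had 24.1 TPM from 2674 counts in replicate 2 and 17.1 TPM from 1734 counts in replicate 1, a difference of 0.47 with bounds that did not overlap. Egr3 had 0.58 TPM from 66 counts in replicate 2 and 0.96 TPM from 85 counts in replicate 1. Egr2, known for its part in Schwann cells, had 0.33 TPM in replicate 2 and 0.68 in replicate 1. Egr4 had 5 counts in replicate 2 and 0 in replicate 1, where the deposited upper bound was 0.0436 TPM. Egr2, Egr3 and Egr4 were too low for a comparison between the libraries.

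Among the other transcription factors, Myc was level between the libraries and the rest were low. Myc (chr15:61985391-61990374), a driver of growth, had 18.8 TPM from 1385 counts in replicate 2 and 18.6 TPM from 1199 counts in replicate 1. Csrnp1, a nuclear activator, had 6.62 TPM from 484 counts in replicate 2 and 4.73 TPM from 315 counts in replicate 1, and its bounds overlapped. Maff, a small MAF protein that pairs with stress factors, had 2.00 TPM in replicate 2 and 1.64 in replicate 1. Atf3, induced by many stresses, had 1.29 TPM from 82 counts in replicate 2 and 0.64 TPM from 30 counts in replicate 1, and its mean of 0.965 TPM fell just short of the limit for comparison. Npas4, known from active neurons, was at 0.07 TPM in both libraries, and Arc, a synaptic gene of active neurons, at 0.59 TPM in replicate 2 and 0.64 in replicate 1, with 62 counts in each.

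The KLF genes, zinc-finger factors of the Krüppel type, did not move as a family. Klf2 (chr8:72319033-72321656), known from endothelium under flow and from resting lymphocytes, had 19.9 TPM from 1241 counts in replicate 2 and 25.5 TPM from 1462 counts in replicate 1. Klf6 had 12.2 TPM from 1360 counts in replicate 2 and 14.9 TPM from 1475 counts in replicate 1. Klf4, known from epithelium and endothelium, went the other way, with 9.76 TPM in replicate 2 and 6.68 in replicate 1. All 3 pairs of bounds were apart, yet each difference (-0.34, -0.26 and 0.49 on the log2 scale for Klf2, Klf6 and Klf4) was under 1.5-fold. Beside these values, the 6 endothelial markers summed to 194 TPM in replicate 2 and 220 in replicate 1. The lymphocyte markers were lower in replicate 2 as given above. The part of either cell type in the KLF values was not tested.

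Of the IER genes, Ier3 alone was over 1.5-fold higher in replicate 2. Ier3 (chr17:35821684-35822923), a small protein known to act on survival under stress, had 7.10 TPM from 261 counts in replicate 2 and 3.39 TPM from 115 counts in replicate 1, a difference of 0.88. Ier2, a nuclear protein, had 15.0 TPM from 762 counts in replicate 2 and 12.1 TPM from 567 counts in replicate 1, with bounds apart. Ier5 had 3.00 TPM in replicate 2 and 3.43 in replicate 1, with overlapping bounds.

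The phosphatases that switch off MAP kinases all lay under 1.5-fold apart. Dusp6 (chr10:99263231-99267489), a cytoplasmic phosphatase, had 30.6 TPM from 2187 counts in replicate 2 and 29.7 TPM from 1998 counts in replicate 1. Dusp4, a nuclear phosphatase, had 7.47 TPM from 703 counts in replicate 2 and 5.99 TPM from 520 counts in replicate 1. Dusp5, also nuclear, had 3.19 TPM in replicate 2 and 2.26 in replicate 1. The bounds overlapped for Dusp6 and were apart for Dusp4 and Dusp5.

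Of the genes that act on messenger RNA decay, only Btg2 was over 1.5-fold apart. Zfp36l1 (chr12:80107754-80113013), which binds AU-rich elements and brings decay enzymes, had 55.2 TPM from 5253 counts in replicate 2 and 52.5 TPM from 4787 counts in replicate 1. Its relative Zfp36, known as tristetraprolin, had 652 counts in each library, which came to 7.52 TPM in replicate 2 and 8.17 in replicate 1. Btg1 (chr10:96617006-96622809), an antiproliferative protein that binds the deadenylation machinery, had 40.6 TPM from 3560 counts in replicate 2 and 38.6 TPM from 3530 counts in replicate 1. The bounds of these 3 genes overlapped between the libraries. Btg2 (chr1:134075170-134079120), of the same family and known as a target of p53, had 15.7 TPM from 1479 counts in replicate 2 and 9.77 TPM from 849 counts in replicate 1. Its difference of 0.63 was just past 1.5-fold, and it was under that limit with ERCC spike-in scaling and in the kallisto values.

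The GADD45 genes, small stress proteins that activate a kinase upstream of p38 and JNK, split. Gadd45b (chr10:80930073-80932204) had 24.6 TPM from 970 counts in replicate 2 and 7.93 TPM from 294 counts in replicate 1, a difference of 1.52. Gadd45a (chr6:67035096-67037457) had 6.95 TPM from 240 counts in replicate 2 and 4.03 TPM from 142 counts in replicate 1, a difference of 0.66. In the kallisto values the Gadd45a levels were 15.6 TPM in replicate 2 and 12.3 in replicate 1, under 1.5-fold apart. Gadd45g (chr13:51846678-51848468) had 13.9 TPM from 477 counts in replicate 2 and 16.8 TPM from 532 counts in replicate 1, so it was lower in replicate 2 with bounds apart.

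Among signal inhibitors and kinases, Rgs2 was the most abundant gene of the set and Sik1 differed most between the libraries. Rgs2 (chr1:143999338-144004161), which speeds the shut-off of Gq proteins, had 127 TPM from 6481 counts in replicate 2 and 101 TPM from 4740 counts in replicate 1 (114 ± 17.9, SD, n = 2). It ranked 362 among nuclear protein-coding genes. Sik1 (chr17:31844250-31855804), a salt-inducible kinase known to be induced by corticotropin in adrenal cortex cells and to restrain CREB coactivators, had 27.0 TPM from 3917 counts in replicate 2 and 12.6 TPM from 1684 counts in replicate 1. Its difference was 1.04. Nfkbia, the inhibitor that holds NF-kB in the cytoplasm, had 25.8 TPM from 1313 counts in replicate 2 and 28.5 TPM from 1318 counts in replicate 1. Trib1, a pseudokinase that guides protein breakdown, had 6.86 TPM in replicate 2 and 5.56 in replicate 1. Socs3, an inhibitor of cytokine receptors, had 1.30 TPM in replicate 2 and 1.72 in replicate 1. The bounds were apart for Rgs2, Sik1 and Trib1 and overlapped for Nfkbia and Socs3.

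At the level of transcripts, most of the set was simple. Of the 31 genes, 9 have a single annotated transcript, and for 29 the main transcript was the same in both deposited quantifications. Averaged over the libraries in the RSEM values, the main transcript took at least 90% of 14 genes. It took under 60% of 5, namely Rgs2, Dusp6, Btg1, Csrnp1 and Myc. In the kallisto values Rgs2, Csrnp1 and Myc were also under 60%, but Dusp6 was at 67.3% and Btg1 at 70.5%. There the main transcripts of Fos and Gadd45a took 58.2% and 46.5%. Rgs2 was the only gene whose main transcript is not annotated as protein-coding. Rgs2-201, 763 bases long and annotated as a target of nonsense-mediated decay (the removal of RNA with an early stop codon), took 47.7% of the gene in both libraries, and in the kallisto values 50.8% in replicate 2 and 51.8% in replicate 1. The coding transcript Rgs2-202, of 3021 bases, took 35.4% in replicate 2 and 34.8% in replicate 1, and the shorter coding transcript Rgs2-204 took 12.7% and 14.3% in the same order. Coding forms together came to 48.0% of the gene in replicate 2 and 49.1% in replicate 1. The Rgs2 level above therefore sums coding and non-coding forms.

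Dusp6-201 took 49.97% of its gene in replicate 2 and 49.1% in replicate 1, with transcripts annotated as non-coding at 31.4% and 28.6% in the same order. Btg1-202, a form of 668 bases, took 56.3% in replicate 2 and 48.8% in replicate 1, and Btg1-201, of 5001 bases, took the rest. For Csrnp1 the main transcript was Csrnp1-204 (50.5% in replicate 2, 51.2% in replicate 1), whereas kallisto's was Csrnp1-203. For Myc it was Myc-202 at 36.6% in replicate 2 and 28.5% in replicate 1, and kallisto listed Myc-202 at 0 and put Myc-205 first, level with Myc-201. All Myc and Csrnp1 transcripts with any level are protein-coding, so the disagreement is over forms and not over coding RNA.

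Transcripts with a retained intron, which in total RNA can come from RNA not yet spliced, were found in 9 genes. In Fosl2 they took 17.2% in replicate 2 and 19.3% in replicate 1, and in Sik1 12.1% and 13.1% in the same order. In Gadd45a they took 23.0% in replicate 2 and 9.68% in replicate 1, and in Gadd45b 8.33% in replicate 2 and 4.41% in replicate 1. The kallisto values gave Fosl2 31.5% in replicate 2 and 33.9% in replicate 1, and Sik1 9.43% and 11.9% in the same order. They gave Gadd45a 30.1% in replicate 2 and 17.4% in replicate 1, and Gadd45b 12.6% and 0%. The shares thus depend on the quantification, and in both the genes gave no single direction. In Fos, processed transcripts without a coding frame took 17.4% in replicate 2 and 11.1% in replicate 1. The kallisto values put them at 47.3% in replicate 2 and 36.4% in replicate 1, so that share depends on the quantification.

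**Figure D4:**
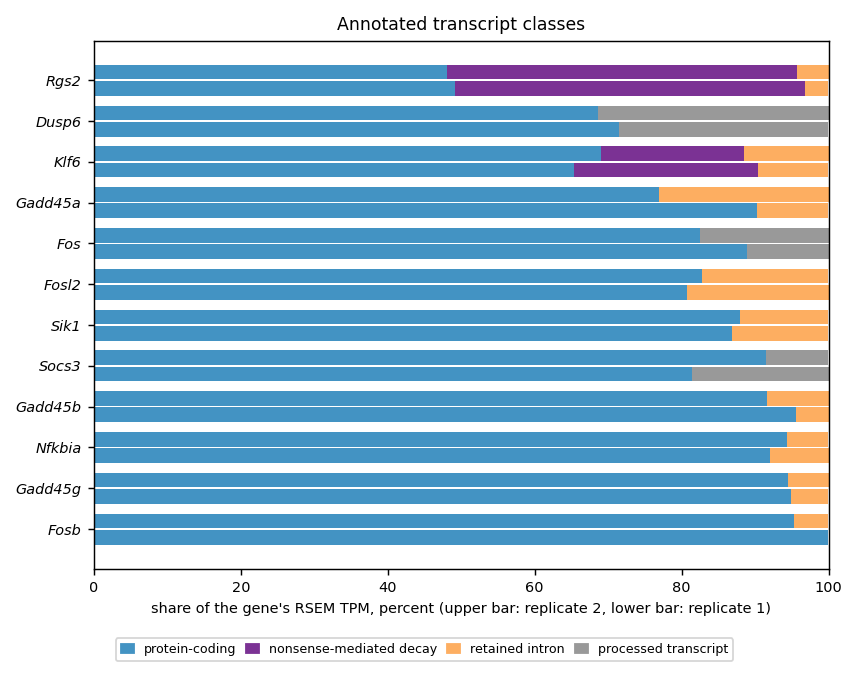
Share of each annotated transcript class in the gene's TPM, in percent, for the 12 genes whose classes other than protein-coding summed to at least 2% in replicate 2; the upper bar of each pair is replicate 2 and the lower bar replicate 1. Rgs2 stands out with 47.7% on a nonsense-mediated decay transcript in both libraries.

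In gene structure the set was compact. The median gene spanned 4904 bases and its main coding transcript had 3 exons, beside 24885 bases and 9 exons over 12498 nuclear protein-coding genes averaging 1 TPM or more. Up to 4 exons were found in 33 of the 38 (86.8%), beside 21.4% of those genes. A single exon was found in 6 (Jun, Junb, Jund, Ier2, Ier5 and Zfp36), or 15.8% beside 2.51%. For Zfp36 this was counted in its main transcript Zfp36-202. The exceptions in exon number were Sik1 with 14 exons, Npas4 with 8, Nfkbia with 6, and Klf4 and Rgs2 with 5. Spans under 10000 bases were found in 31 of the 38 (81.6%), beside 23.5%. The longest were Atf3 with 47744 bases, above the median of the compared genes, and Fosl2 with 22042. The genes lay on 16 chromosomes. Overlaps with another annotated gene were found for 10 of the 38, on the opposite strand in each case and for Csrnp1 also on the same strand, with the macrophage gene Cx3cr1.

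The 3′ ends carried the pentamer ATTTA, the core of AU-rich elements through which ZFP36 proteins are known to shorten the life of RNA. At least 1 was present in 31 of the 38 (81.6%), beside 64.2% of the 12498 genes. At least 3 were present in 16 (42.1%), beside 32.6%. The median density was 1.84 per kilobase, beside 1.19. Ier3 had the densest 3′ end, with 5 pentamers or 8.16 per kilobase, Zfp36l1 had 9 pentamers, and Fos had 4. No pentamer was found in Egr4, Ier2, Btg1, Gadd45b, Gadd45g, Trib1 or Arc. The Btg1 count comes from Btg1-202, whose annotated 3′ end is only 25 bases long. The windows of 30 bases below, 5′ to 3′ on the messenger strand of GENCODE M21, show the part richest in the pentamer for 5 genes of the set, with ATTTA in capitals.
Fos: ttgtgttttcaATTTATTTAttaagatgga
Ier3: ctaattaatATTTAtgtATTTAtgtatatc
Zfp36: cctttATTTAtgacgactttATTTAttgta
Btg2: aATTTAtttgtagatgtgtgcaatATTTAc
Socs3: ttgcacatatATTTAtATTTAtactcagaa
They begin 642, 174, 571, 1323 and 1388 bases after the stop codon in Fos, Ier3, Zfp36, Btg2 and Socs3. In Fos the pentamers share a base and in Socs3 they nearly touch, and Zfp36, whose product binds such elements, carries them in its own messenger. Of the 8 genes over 1.5-fold higher in replicate 2, Ier3 and Btg2 had 5 pentamers, Fos 4, Sik1 3, Junb and Gadd45a 2, Fosb 1 and Gadd45b 0.

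The genes for proteins that switch early genes on were close between the libraries. All 17 listed regulators, among them serum response factor with its partners, CREB with its coactivators, and the kinases upstream of them, were compared. None was over 1.5-fold apart, a limit passed by 4.09% of all genes in replicate 2 and 3.57% in replicate 1. The median difference was -0.093, beside -0.058 over all genes. Higher in replicate 2 were 3, beside 37.2% of all genes, and higher in replicate 1 were 14. These counts depend on the scaling, since 8 were higher in replicate 2 with DESeq2 size factors and 0 with ERCC spike-in scaling. The widest differences were those of Mrtfa, a coactivator of serum response factor, with 6.31 TPM in replicate 2 and 8.56 in replicate 1, and of Ep300, a coactivator of CREB, with 18.3 TPM in replicate 2 and 21.03 in replicate 1. The summed regulators came to 303 TPM in replicate 2 and 325 in replicate 1.

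Other early response genes outside the set were mixed, and those furthest apart were mostly higher in replicate 2. Of 26 listed, 25 were compared, with a median difference of 0.23. Higher in replicate 2 were 16, beside 37.2% of all genes, and higher in replicate 1 were 9. Over 1.5-fold higher in replicate 2 were 8, beside 4.09% of all genes, and 1 was over 1.5-fold higher in replicate 1, beside 3.57%. Nr4a2, an orphan nuclear receptor, differed most, with 13.0 TPM in replicate 2 and 1.81 in replicate 1. Dusp2, a phosphatase of immune cells, had 0.50 TPM in replicate 2 and 2.64 in replicate 1. Nr4a1, a nuclear receptor known to be induced by corticotropin in the cortex, was the most abundant of the list at 183 TPM in replicate 2 and 95.1 in replicate 1. The Dusp2 value went with lymphocyte markers that were also lower in replicate 2, and their part in it was not tested.

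**Figure D5:**
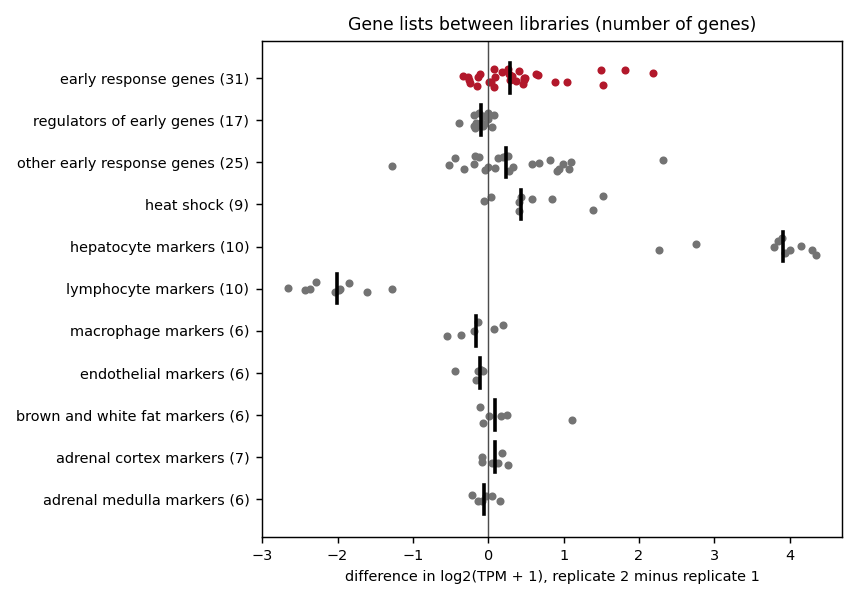
Difference in log2(TPM + 1), replicate 2 minus replicate 1, of each gene averaging 1 TPM or more in the early response set and in 10 other lists (number of genes in brackets); vertical bars are medians. The early response genes have a median of 0.29 and a tail to the right, the 17 regulators cluster near 0, and the hepatocyte and lymphocyte markers lie far to either side.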

How the data were processed

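Expected counts and TPM per gene and transcript were deposited by the authors, quantified on mm10 with GENCODE M21; per the file headers, the columns are RSEM's. Credibility bounds of TPM, a signal with no fixed total, were deposited by the authors with no level stated; aligner, versions and strand setting: not given in the sources used here. Estimated counts and TPM of a second quantification carry kallisto's columns, per the file headers, and were summed here to genes. Reads of CAST alleles were quantified on mm10 too, with an effect not measured.

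The set's 38 genes and the 10 other lists were chosen with earlier results of these data known. Differences were of log2(TPM + 1), pseudocount 1 TPM, for a mean of at least 1 TPM, over nuclear protein-coding genes; limits were 1.5-fold and 2-fold on TPM + 1. With 1 group of 2 libraries no test was run. Every gene of the set was named; genes over 1.5-fold apart and the 2 highest of each role were given with counts, and of each list the 2 genes furthest apart between libraries and the most abundant (for the regulators, not reported here). Transcripts were named for a main transcript that is non-coding, differs between quantifications or takes under 60%. Alternatives were other scalings (edgeR 4.0.16 TMM and DESeq2 1.42.0 size factors on rounded expected counts of at least 10, ERCC spike-ins), pseudocounts, filters, kallisto values and leaving out each library. R 4.3.3, Python 3.11.15, pandas 2.3.3, numpy 2.4.6 and matplotlib 3.10.9 were used.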

Additional observations from a re-analysis of the deposited data

How the results depend on the processing

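The median difference kept its sign under each scaling, pseudocount, filter and quantification tried. The median difference of the set was 0.29, and 0.27 with TPM rescaled over nuclear protein-coding genes, 0.36 with edgeR TMM factors and 0.36 with DESeq2 size factors, 0.22 with ERCC spike-in scaling and 0.28 in the kallisto values. It was 0.31 with a pseudocount of 0.1 TPM, 0.30 with 0.5 TPM, 0.22 with no filter on low values, 0.30 for means of at least 5 TPM and 0.093 for means of at least 20 TPM. The 8 genes over 1.5-fold higher in replicate 2 became 7 with ERCC spike-in scaling (Btg2 left), 7 in the kallisto values (Btg2 and Gadd45a left and Atf3 joined) and 1 for means of at least 20 TPM, because the filter leaves 11 genes. Genes found in both libraries were 22 to 34 under other limits. The median level of the set, taken within each library and then averaged, was 8.76 TPM, and 14.0 TPM in the kallisto values. The kallisto values were higher for 37 of 38 genes (median ratio 1.44 for the set, 1.52 over all genes), and the cause was not tested. The median share of the main transcript, averaged over the libraries in the same way, was 89.4% and, in the kallisto values, 87.3%. Leaving out each library in turn gave a share of nuclear protein-coding TPM of 0.209% to 0.265%, a median level of 7.31 to 10.2 TPM, a Jund share of its family of 36.2% to 56.6%, a Fosl2 share of 81.6% to 93.3% and a main transcript share of 88.5% to 90.3%. Levels under about 1 TPM rest on few counts, and with 2 libraries an SD is itself imprecise. No paired analysis was possible because there is 1 group.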

Other observations

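Heat shock genes, another class of rapidly induced genes, were mostly higher in replicate 2. Of 9 compared, 8 were higher in replicate 2, beside 37.2% of all genes. Of these 8, 4 were over 1.5-fold higher, beside 4.09% of all genes. The median difference of the 9 was 0.44 on the log2 scale. Over the scalings tried, 7 to 9 were higher in replicate 2, and 3 or 4 were over 1.5-fold apart. Like the other lists, this one was chosen with earlier results of these data known. Hspa1b, an inducible chaperone, had 24.4 TPM in replicate 2 and 7.89 in replicate 1, and Hspa1a 10.4 TPM in replicate 2 and 3.38 in replicate 1. These 2 genes are near-identical copies, so the split of reads between them is uncertain. Hspa8, the constitutive chaperone, was the most abundant at 604 TPM in replicate 2 and 458 in replicate 1. The mitochondrial chaperones Hspd1 and Hspe1 were close to level, with differences of 0.033 and -0.050.

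The marker lists of the other cell types behaved as follows. Over all genes, 4.09% were over 1.5-fold higher in replicate 2 and 3.57% over 1.5-fold higher in replicate 1. Of the hepatocyte markers, all 10 were over 1.5-fold higher in replicate 2, with Apoa2 (454 TPM in replicate 2, 21.4 TPM in replicate 1) and Ttr (292 and 13.9 TPM in the same order) furthest apart and Alb the most abundant at 3072 TPM in replicate 2 and 172 in replicate 1. Of the lymphocyte markers, all 10 were over 1.5-fold lower in replicate 2, with Cd52 (2.50 TPM in replicate 2, 20.98 TPM in replicate 1) and Ptprc (1.92 and 14.7 TPM in the same order) furthest apart and Coro1a the most abundant by its mean, at 3.24 TPM in replicate 2 and 20.8 in replicate 1. The medians of the macrophage, endothelial, fat, cortex and medulla lists were -0.17, -0.12, 0.093, 0.086 and -0.052. With TMM and DESeq2 scaling the medulla median was 0.016 and 0.020. Furthest apart were Csf1r (-0.55) and Cd68 (-0.36) among macrophage markers and Pecam1 (-0.44) and Egfl7 (-0.17) among endothelial markers, where C1qa and Egfl7 were the most abundant. Among fat markers they were Lep (1.11) and Ucp1 (0.25), and Fabp4 was the most abundant. Among cortex markers they were Star (0.26) and Nr5a1 (0.18), with Star the most abundant, and among medulla markers Dbh (-0.21) and Chgb (0.16), with Chgb the most abundant.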
